A study of Rattus norvegicus with 9 samples.

Results

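The genes described here run the calcium cycle of the heart muscle cell, from the channel that lets calcium in to the pump and exchanger that take it away. They are 10 genes chosen by name, Cacna1c, Jph2, Ryr2, Trdn, Casq2, Hrc, Atp2a2, Pln, Slc8a1 and Camk2d, out of 35843 genes with an FPKM value, and all 10 were found in the table. Bulk RNA-seq was done on left ventricles of adult male Sprague-Dawley rats at day 28, with 3 libraries in each of 3 groups. Group Sham had the same operation without ligation and saline by gavage. Group MI had the left anterior descending artery tied off for good and saline. Group DAPA had the ligation and dapagliflozin, an SGLT2 inhibitor, at 1 mg/kg daily by gavage from the first day after surgery. The study's methods describe molecular work mainly on the border of the infarct with the scar removed, and on the matching area in Sham rats. For the RNA-seq they name only left ventricles, and the study's results speak of infarct myocardium in the ligated groups. The exact zone in these libraries is therefore not certain. Each library is called a rat here, although every title carries 2 identifiers and the labels do not say whether these are pieces, runs or animals. The study's methods name 3 biological replicates per group for the RNA-seq, without saying what the 2 identifiers stand for. If the libraries are not separate animals, the p-values measure a spread that may be partly technical.

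In each heartbeat, calcium enters through the L-type channel, whose pore is made by Cacna1c, and opens the ryanodine receptor Ryr2 on the sarcoplasmic reticulum, the internal calcium store. Junctophilin-2 (Jph2) holds the membranes of channel and store together. Triadin (Trdn), calsequestrin (Casq2) and the histidine-rich calcium-binding protein (Hrc) belong to the release unit. Of these, Casq2 and Hrc bind or buffer calcium in the store. The pump SERCA2 (Atp2a2) returns calcium to the store under the brake of phospholamban (Pln), the sodium-calcium exchanger (Slc8a1) carries calcium out of the cell, and the kinase CaMKII delta (Camk2d) phosphorylates several of these proteins. Tnnt2, cardiac troponin T of the thin filament, served as the cardiomyocyte reference.

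Between 13597239 and 17210909 reads per rat were recovered from the FPKM steps, of which 61.1% to 66.9% came from the mitochondrial genome in Sham, 7.07% to 19.1% in MI and 17.5% to 32.0% in DAPA. The reads outside it were 5702454 to 6570698 in Sham and 11440726 to 13171891 in the other two groups, so low values are least precise in Sham. Cardiomyocyte markers were expressed in all 9 rats, and their summed FPKM over 9 genes was 6565 to 9585 in Sham, 1701 to 8470 in MI and 6728 to 14558 in DAPA, with MI rat 2 the lowest. All 8 fibroblast markers and all 6 macrophage markers rose in MI vs. Sham, and all 4 endothelial markers fell. The fibroblast sum was 509 to 818 in Sham, 3991 to 7828 in MI and 2452 to 4416 in DAPA, and the B and plasma cell sum was 2931 in MI rat 2 against at most 4.24 in Sham. Jchain alone made 2881 of that 2931. No marker gene of these lists was below 1 FPKM in all rats. In bulk tissue, fewer cardiomyocytes and less RNA of a gene per cardiomyocyte cannot be told apart.

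Hrc and Trdn, both of the release unit, fell furthest after infarction, while Casq2 of the same unit was not called. For these 3 genes the 250 bases before the RefSeq start are shown in the GRCr8 build, to set their upstream sequence beside their different values. The 10 genes all matched an entry of the promoter table. Capitals mark a match, on either strand, to any of 7 searched motifs. They were the E-box (its letters are CANNTG), the box written CCAAT, the GC box (its letters are GGGCGG) and the TATA box (searched as TATAAA). The others were the muscle element MCAT (searched as CATTCC), the GATA site (searched as AGATAA) and the site of MEF2 factors (searched as TAAAAATA), and matches could overlap.
Hrc, chr1:104949500-104949749, + strand: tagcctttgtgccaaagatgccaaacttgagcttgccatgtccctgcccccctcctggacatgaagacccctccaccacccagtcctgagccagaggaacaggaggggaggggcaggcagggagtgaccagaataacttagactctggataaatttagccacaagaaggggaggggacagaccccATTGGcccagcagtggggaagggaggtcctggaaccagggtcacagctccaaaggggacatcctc
Trdn, chr1:26229600-26229849, - strand: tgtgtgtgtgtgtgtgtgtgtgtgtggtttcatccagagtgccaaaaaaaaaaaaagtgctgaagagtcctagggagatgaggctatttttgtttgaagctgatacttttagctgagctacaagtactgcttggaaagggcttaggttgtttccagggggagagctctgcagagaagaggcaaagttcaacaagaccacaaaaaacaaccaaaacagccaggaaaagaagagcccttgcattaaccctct
Casq2, chr2:192214306-192214555, + strand: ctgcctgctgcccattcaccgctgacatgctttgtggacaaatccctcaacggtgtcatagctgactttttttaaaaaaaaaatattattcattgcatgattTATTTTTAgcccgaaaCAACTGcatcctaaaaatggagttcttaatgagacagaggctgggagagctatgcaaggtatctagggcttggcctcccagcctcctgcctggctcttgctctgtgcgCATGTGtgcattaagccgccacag
Hrc held 1 CCAAT box, Trdn held none of the 7 motifs, and Casq2 held 2 E-boxes and the only MEF2 site found among the 10 genes. Of all 33469 RefSeq promoters of this length, 2.44% held the MEF2 letters, 34.0% a CCAAT box and 65.5% an E-box, against 1, 5 and 6 of the 10 calcium handling genes. A GC box was found in 3 of the 10 and in 30.5% of all promoters, an MCAT element in 1 of the 10 and in 12.1%, and neither the TATA box (12.9% of all promoters) nor the GATA site (10.3%) was found in any of the 10. A match of letters is not a binding site, and these windows may miss the start used in the heart.

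Expression levels per length of gene spanned a wide range. In Sham, Pln was the highest with a mean of 307 FPKM ± 73.9 (SD, n = 3), followed by Atp2a2 with 110 ± 21.7, Casq2 with 93.2 ± 20.7 and Hrc with 77.9 ± 13.3. Camk2d (27.5 ± 5.84), Trdn (12.4 ± 1.73) and Jph2 (12.2 ± 2.29) were in the middle, and Cacna1c (6.25 ± 0.761), Ryr2 (3.94 ± 1.60) and Slc8a1 (1.70 ± 0.533) were the lowest. Atp2a2, Casq2 and Hrc lay within their spread of their neighbours in this order, as did Trdn and Jph2. In MI the first 3 places were the same, while Slc8a1, with a mean of 6.28 FPKM ± 0.511 (SD, n = 3), stood above Trdn, Ryr2 and Cacna1c.

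**Figure D1:**
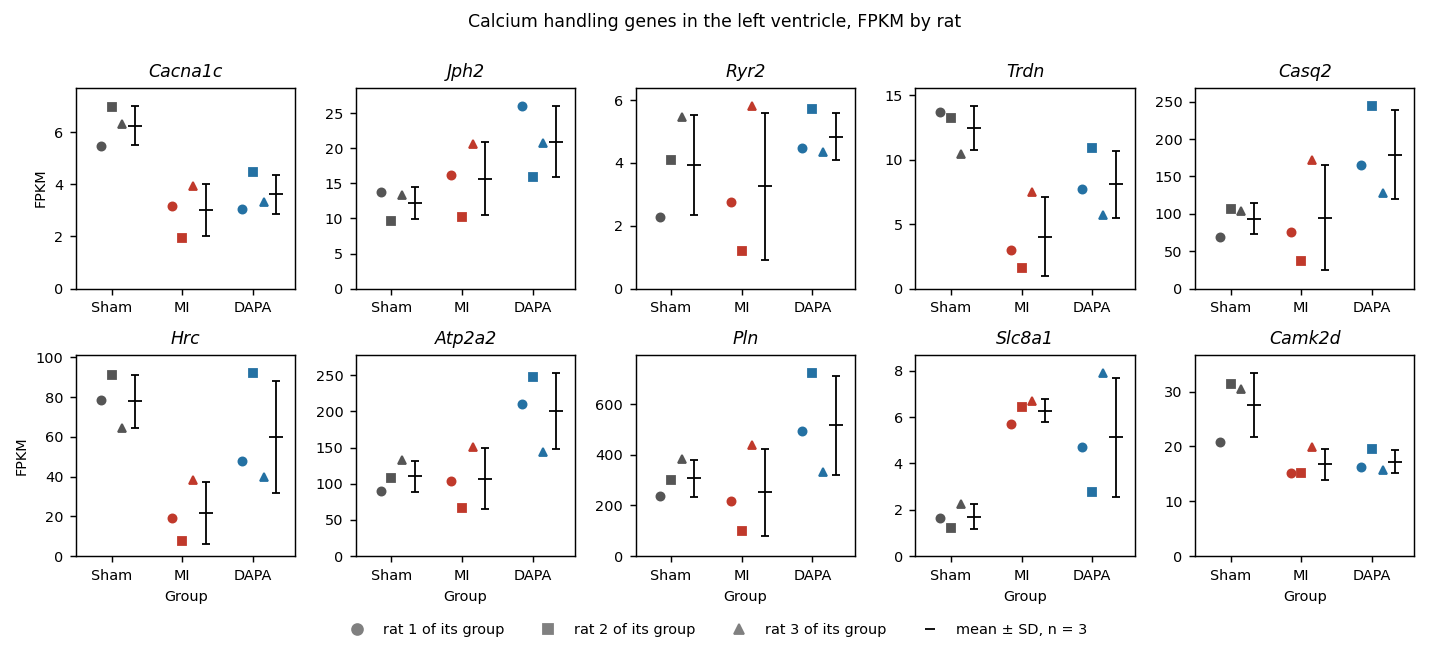
FPKM of the 10 calcium handling genes in each rat (y axis, linear and different for each gene) by group (x axis), with marker shapes for rats 1 to 3 of a group and black bars for the mean ± SD (n = 3). Hrc and Trdn lay lower in all 3 MI rats than in any Sham rat, Slc8a1 lay higher, and MI rat 2 was the lowest MI rat for 9 of the 10 genes.

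The comparison of MI with Sham asks how the calcium cycle genes stood 28 days after coronary ligation. Expression of Hrc, Trdn, Cacna1c and Camk2d fell and that of Slc8a1 rose, while Atp2a2, Pln, Casq2, Ryr2 and Jph2 did not pass the test (limma on log2(FPKM + 1), Benjamini-Hochberg adjusted p under 0.05 over all 13485 genes tested). Of the 10 genes, 4 were called lower, where 19.5% of all genes tested were, and 1 was called higher, where 19.5% of all genes were. Over the 10 genes the median log2 fold change was -0.41, against -0.01 for all genes. The direction of the group as a whole depended on the scaling: relative to a panel of cardiomyocyte genes the median of the 10 genes was 0.30 (all genes 0.71), and scaled to all recovered reads it was 0.56 (all genes 0.91), so in both it stayed below that of all genes. None of the 10 was called relative to the panel, where 562 of all genes were called higher and 58 lower. Scaled to all recovered reads 3 were called higher, Slc8a1, Jph2 and Atp2a2, and 0 lower. Under this scaling 8847 of all 13485 genes were called higher and 575 lower.

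Hrc was 78.3, 90.9 and 64.4 FPKM in the Sham rats, 19.0, 7.79 and 38.2 in the MI rats and 47.6, 92.0 and 39.6 in the DAPA rats. Every MI rat was below every Sham rat, and the lowest was MI rat 2. The log2 fold change in MI vs. Sham was -2.04 ± 0.49 (SE, limma adjusted p = 0.0171), and it stayed negative scaled to all recovered reads, at -0.96 with an adjusted p of 0.105.

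Trdn was 13.7, 13.2 and 10.5 FPKM in Sham, 3.01, 1.59 and 7.47 in MI and 7.73, 10.9 and 5.69 in DAPA. Here too the MI and Sham rats did not overlap, while the highest DAPA rat passed the lowest Sham rat. In MI vs. Sham Trdn fell by 1.59 ± 0.41 on the log2 scale (SE, limma adjusted p = 0.0207). Scaled to all recovered reads it was -0.64 with an adjusted p of 0.194.

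For the L-type channel, Cacna1c was 5.46, 6.98 and 6.32 FPKM in Sham, 3.17, 1.95 and 3.92 in MI and 3.05, 4.47 and 3.30 in DAPA. All 6 ligated rats were below the lowest Sham rat. The log2 fold change was -0.88 ± 0.23 (SE, limma adjusted p = 0.0215) in MI vs. Sham, but 0.013 scaled to all recovered reads, where the median of all genes was 0.91.

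The kinase gene Camk2d was 20.8, 31.4 and 30.4 FPKM in Sham, 15.1, 15.1 and 19.99 in MI and 16.3, 19.6 and 15.7 in DAPA. The lowest Sham rat was close to the highest MI rat, without overlap. Camk2d had a log2 fold change of -0.68 ± 0.20 (SE, limma adjusted p = 0.0370) in MI vs. Sham, and 0.39 scaled to all recovered reads. Its direction turned with that scaling, where the median of all genes was 0.91. Its value minus the median of all genes was -0.67 in the main fit and -0.52 scaled to all recovered reads.

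Slc8a1 was the only gene of the 10 called higher. It was 1.65, 1.19 and 2.26 FPKM in Sham, 5.71, 6.45 and 6.69 in MI and 4.70, 2.78 and 7.89 in DAPA, which are 37 to 60 reads in Sham, 333 to 387 in MI and 135 to 431 in DAPA. The MI rats were close to each other and all above Sham, also MI rat 2, in which most other genes of the group were low, and the DAPA rats spread the widest. The log2 fold change in MI vs. Sham was 1.45 ± 0.20 (SE, limma adjusted p = 0.00253), and the call was kept without any 1 rat and under both read scalings. It was lost relative to the cardiomyocyte panel (2.16, adjusted p = 0.132) and relative to Tnnt2 (2.33, limma adjusted p = 0.0906).

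Atp2a2 and Pln did not pass the test. Atp2a2 was 90.0, 107 and 133 FPKM in Sham and 104, 66.6 and 150 in MI, so the MI rats lay on both sides of Sham, with a log2 fold change of -0.10 ± 0.30 (SE, limma adjusted p = 0.816). Pln was 238, 299 and 385 FPKM in Sham and 217, 99.7 and 439 in MI, with a log2 fold change of -0.50 ± 0.50 (SE, limma adjusted p = 0.458). Without MI rat 2 both values were positive, 0.20 for Atp2a2 and 0.036 for Pln.

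Among the rest of the release unit, Casq2 was 69.4, 107 and 103 FPKM in Sham and 75.3, 36.9 and 172 in MI, the MI rats lying below, at and above the Sham range. Ryr2 was 2.27, 4.10 and 5.45 FPKM in Sham and 2.75, 1.21 and 5.82 in MI, and Jph2 was 13.7, 9.57 and 13.3 in Sham and 16.2, 10.2 and 20.6 in MI. For all 3 genes the groups overlapped, and the log2 fold changes were -0.22 ± 0.51, -0.31 ± 0.44 and 0.30 ± 0.27 (SE, limma adjusted p = 0.760, 0.607 and 0.407).

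Of the 5 calls, only Slc8a1 was kept in all 6 fits that left out 1 rat. Hrc was lost without Sham rat 2, Trdn without Sham rat 1, Sham rat 2 or MI rat 1, Cacna1c without Sham rat 2, Sham rat 3 or MI rat 1, and Camk2d without Sham rat 2, Sham rat 3, MI rat 1 or MI rat 2. The number called was 1 without Sham rat 2, 3 without Sham rat 3 and 2 without MI rat 1. Without MI rat 2, the rat with the fewest cardiomyocyte transcripts, 4 of the 10 were called, 1 higher and 3 lower. The FPKM values of MI and Sham did not overlap for 5 of the 10 genes, near the background of 54.6% of all genes.

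**Figure D2:**
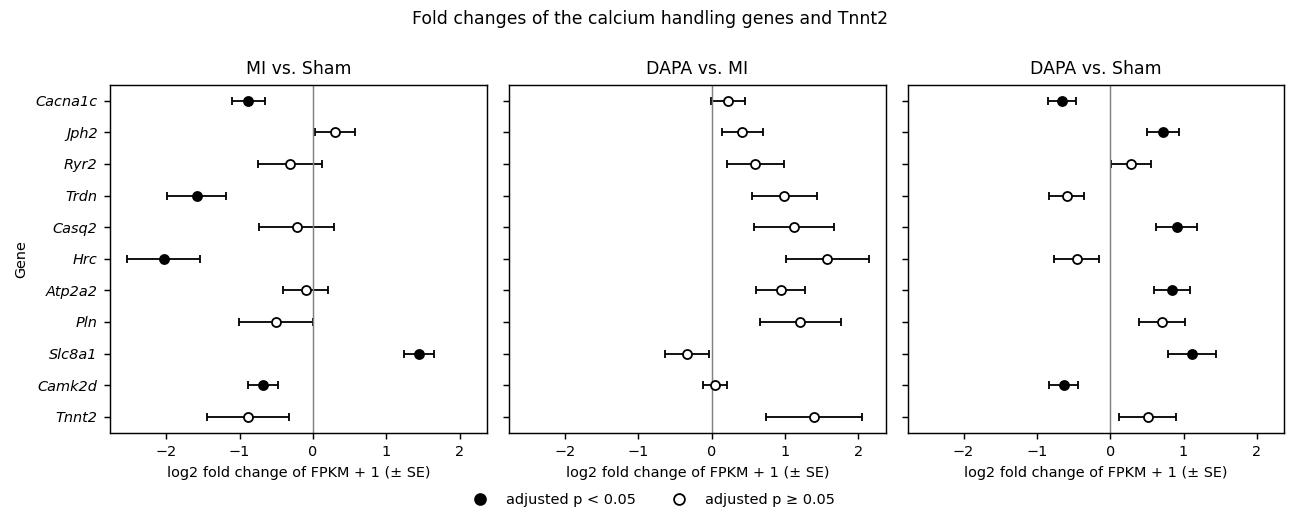
Log2 fold changes of FPKM + 1 (x axis, bars are ± SE) of the 10 genes and Tnnt2 (y axis) in the 3 comparisons, filled where the limma adjusted p was under 0.05. In MI vs. Sham the values ran from -2.04 for Hrc to 1.45 for Slc8a1, and in DAPA vs. MI no gene was filled.

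The comparison of DAPA with MI asks whether treatment from the first day moved these genes in ligated hearts. None of the 10 genes was called, and none of all 13251 genes tested was (0% in either direction, smallest adjusted p = 0.558, limma). At an unadjusted p under 0.05, 2 of the 10 were higher in DAPA, Hrc and Atp2a2, where 4.59% of all genes were, and none was lower. Only Hrc also had a log2 fold change over 1, and 0.951% of all genes passed both thresholds in this direction. These are the thresholds of the study's rule with its p taken as unadjusted, applied here to limma fits, while the study used DESeq2. The median log2 fold change of the 10 genes was 0.77, against -0.02 for all genes, but relative to the cardiomyocyte panel it was -0.54 (all genes -1.33), so the direction turned.

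Hrc had the widest gap, with all 3 DAPA rats above all 3 MI rats (39.6 FPKM in the lowest DAPA rat, 38.2 in the highest MI rat) and a log2 fold change of 1.58 ± 0.56 (SE, limma unadjusted p = 0.0269, adjusted p = 0.558). It was the only one of the 10 whose groups did not overlap, where 13.8% of all genes did not. Atp2a2 was 211, 247 and 144 FPKM in DAPA, of which 2 rats stood above the highest MI rat and 1 just below it. Its log2 fold change was 0.94 ± 0.34 (SE, limma unadjusted p = 0.0278, adjusted p = 0.558).

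Pln was 493, 723 and 334 FPKM in DAPA and Casq2 was 165, 245 and 127, in both with DAPA rat 2 the highest of all 9 rats and DAPA rat 3 below MI rat 3. Their log2 fold changes were 1.21 ± 0.55 and 1.13 ± 0.54 (SE, limma adjusted p = 0.558 for both), and that of Trdn was 0.99 ± 0.44 (adjusted p = 0.558). Ryr2, at 4.47, 5.71 and 4.34 FPKM in DAPA, and Jph2, at 26.0, 16.0 and 20.7, had values of 0.60 ± 0.39 and 0.42 ± 0.28 (SE). Cacna1c and Camk2d, both called lower in MI vs. Sham, were at 0.22 ± 0.23 and 0.042 ± 0.16, and Slc8a1 was the only one below 0, at -0.33 ± 0.30. Tnnt2 itself was at 1.39 ± 0.66 (SE, limma adjusted p = 0.558), more than 8 of the 9 genes with a positive value. The T cell and the B and plasma cell sums were lower in all DAPA rats than in all MI rats (at most 8.28 against at least 9.39, and at most 9.59 against at least 24.6), while the other marker sums overlapped. The B and plasma cell sum in MI was nearly all Jchain (23.9, 2881 and 503 FPKM). Of the single genes, Cd3e, Cd3g and Jchain were lower in all DAPA rats, while Cd3d, Cd2, Cd79b and Ms4a1 overlapped. No tested gene of these lists was called in DAPA vs. MI. The part of the markers in the values of the calcium handling genes was not tested.

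The comparison of DAPA with Sham uses the same Sham rats as that of MI with Sham, so the calls of both share these libraries. Casq2, Atp2a2, Jph2 and Slc8a1 were called higher (4 of 10, where 14.5% of all 13359 genes tested were), and Cacna1c and Camk2d lower (2 of 10, where 14.1% were). The log2 fold changes were 0.91 ± 0.28 for Casq2, 0.84 ± 0.25 for Atp2a2, 0.72 ± 0.22 for Jph2 and 1.11 ± 0.33 for Slc8a1, and -0.66 ± 0.19 for Cacna1c and -0.63 ± 0.20 for Camk2d (SE, limma adjusted p between 0.0392 and 0.0487). In the same comparison 5 of 9 cardiomyocyte markers, all 8 fibroblast markers and all 6 macrophage markers were called higher and all 4 endothelial markers lower. Summed FPKM of the cardiomyocyte markers overlapped between DAPA and Sham, and the part of these markers in the values of the calcium handling genes was not tested.

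These 6 calls were close to the threshold. None was kept when low values were not filtered, and each was kept in only 1 of the 6 fits without 1 rat. Over all 10 genes these fits called between 0 and 5. The number was 0 without Sham rat 2, Sham rat 3 or DAPA rat 1, 1 without Sham rat 1 and 3 without DAPA rat 3. Genes outside the 6 entered these numbers, Hrc and Trdn without DAPA rat 2 and Pln without DAPA rat 3. Scaled to all recovered reads, 6 of the 10 were called higher and 0 lower. Of all 13359 genes, 7059 were called higher and 457 lower under this scaling. Cacna1c and Camk2d turned to 0.067 and 0.21 and the median of all genes to 0.73. Relative to the cardiomyocyte panel 0 were called higher and 4 lower, where 329 of all genes were called higher and 2524 lower. In that fit the prior degrees of freedom were infinite, so its p-values rest on 1 pooled spread and are not independent between genes. Hrc (-0.46 ± 0.31) and Trdn (-0.59 ± 0.24) were not called in DAPA vs. Sham (SE, limma adjusted p = 0.305 and 0.0989), but both were called lower relative to the panel, at -1.06 and -1.19 (limma adjusted p = 0.0326 and 0.0450). Nor were calls made for Pln (0.71 ± 0.32, adjusted p = 0.134) and Ryr2 (0.29 ± 0.27, adjusted p = 0.464). The rats of DAPA and Sham did not overlap for 6 of the 10 genes, where 46.5% of all genes did not.

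A comparison relative to Tnnt2 asks whether the genes moved with a cardiomyocyte transcript of the same rat. Tnnt2 was 2007, 2155 and 2685 FPKM in Sham, 1510, 489 and 2486 in MI and 4410, 4014 and 1890 in DAPA. It was lowest in MI rat 2 and highest in DAPA rat 1. Its log2 fold change in MI vs. Sham was -0.89 ± 0.56 (SE, limma adjusted p = 0.243), so a gene at a steady FPKM rises relative to it.

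Relative to Tnnt2, the release-unit genes Hrc and Trdn were lower in every ligated rat than in Sham, but neither was called in MI vs. Sham (-1.15 ± 0.79 and -0.70 ± 0.85, SE, limma adjusted p = 0.421 and 0.640). Hrc was 3.90, 4.22 and 2.40 FPKM per 100 FPKM of Tnnt2 in Sham, 1.26, 1.59 and 1.54 in MI and 1.08, 2.29 and 2.10 in DAPA. Trdn was 0.681, 0.613 and 0.390 in Sham, 0.200, 0.324 and 0.301 in MI and 0.175, 0.271 and 0.301 in DAPA. For both genes all 6 ligated rats were below all 3 Sham rats, MI rat 2 lay close to the other ligated rats, and the DAPA and MI rats overlapped.

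The mean log2 ratio to Tnnt2 in MI minus Sham was -1.23 for Hrc and -1.02 for Trdn, and in DAPA minus Sham it was -0.98 and -1.17. The two-sided exact permutation p was 0.1 for each of these 4 values, the smallest that 3 rats against 3 allow. Any gene whose groups do not overlap has this p, so it adds nothing to the lack of overlap. Relative to Tnnt2, 30.8% of all genes did not overlap between MI and Sham. Hrc and Trdn also did not overlap between either ligated group and Sham when the panel of 8 cardiomyocyte genes took the place of Tnnt2. Relative to this panel, Cacna1c and Camk2d were also lower, and Casq2 and Atp2a2 higher, in all DAPA rats than in all Sham rats. Ryr2 was lower in all DAPA rats than in all MI rats. The share of all genes without overlap relative to the panel was not computed, so these separations have no background.

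Other genes went the opposite way relative to Tnnt2. Slc8a1, Jph2, Atp2a2, Casq2 and Pln were higher in all 3 MI rats than in all 3 Sham rats, with a mean log2 difference of 2.82, 1.21, 0.78, 0.66 and 0.38. The exact permutation p was 0.1 for each, which follows from the lack of overlap. In limma relative to Tnnt2 the median log2 fold change was 0.88 for all genes and 0.48 for the 10 genes. Atp2a2 (0.79), Casq2 (0.67) and Pln (0.38) were below that median of all genes in the same fit. For Pln and Casq2 the gap was small, 14.4 per 100 of Tnnt2 in MI rat 1 against 14.3 in Sham rat 3 for Pln, and 4.99 in MI rat 1 against 4.97 in Sham rat 2 for Casq2. Relative to the panel, only Slc8a1 and Casq2 of these 5 stayed without overlap. Cacna1c, at 0.272, 0.324 and 0.235 per 100 of Tnnt2 in Sham and 0.210, 0.398 and 0.158 in MI, overlapped, as did Camk2d and Ryr2. In all, 7 of the 10 genes did not overlap between MI and Sham, against 30.8% of all genes.

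**Figure D3:**
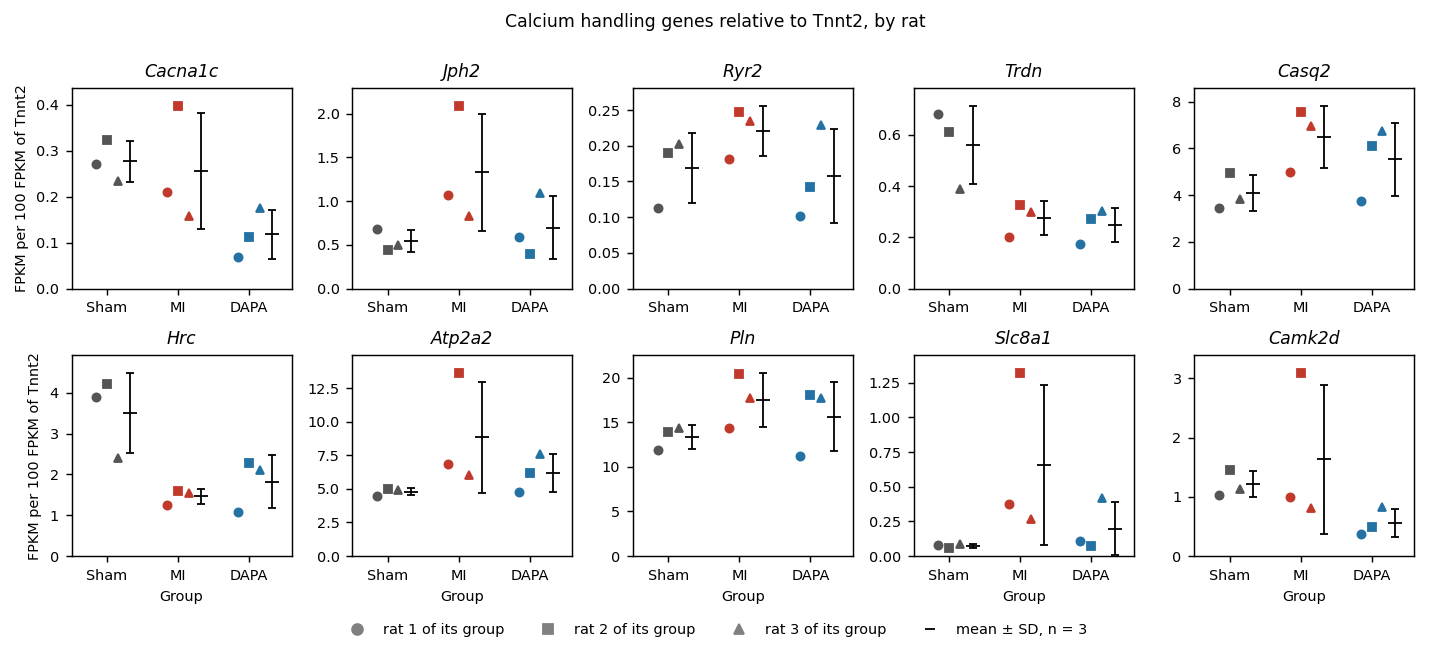
FPKM of each gene per 100 FPKM of Tnnt2 of the same rat (y axis, linear and different for each gene) by group (x axis), with marker shapes for rats 1 to 3 of a group and black bars for the mean ± SD (n = 3). Hrc and Trdn lay lower in all 6 ligated rats than in Sham, and MI rat 2, with the lowest Tnnt2, was the highest of all rats for every gene but these.

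Between DAPA and MI no gene of the 10 was free of overlap relative to Tnnt2, where 10.9% of all genes were. The mean log2 differences ran from -1.81 for Slc8a1 to 0.25 for Hrc, 9 of the 10 below 0. In limma relative to Tnnt2 the median log2 fold change in DAPA vs. MI was -0.62 for the 10 genes and -1.41 for all genes. In DAPA vs. Sham these medians were -0.01 and -0.50. Values below 0 were therefore not particular to the 10 genes. Between DAPA and Sham, Cacna1c, Trdn, Hrc and Camk2d were lower in all DAPA rats (4 of 10, where 28.8% of all genes did not overlap). Cacna1c had a mean log2 difference of -1.31 and Camk2d of -1.17 in this comparison (exact permutation p = 0.1 for each, which follows from the lack of overlap). In limma with the Tnnt2 value of the rat subtracted from every gene, none of the 10 was called in any comparison, where 5.60% of all genes were in MI vs. Sham, 0.242% in DAPA vs. MI and 10.2% in DAPA vs. Sham. In that fit the scatter of Tnnt2 entered every gene and the prior degrees of freedom were infinite, so its p-values rest on 1 pooled spread and are not independent between genes. The prior degrees of freedom were also infinite in the fits relative to the cardiomyocyte panel, so the same limit holds for their p-values.

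Within groups, 9 of the 10 genes followed Tnnt2 from rat to rat. The correlation of deviations from the group means over the 9 rats was 0.94 for Atp2a2 and Pln, 0.90 for Casq2, 0.84 for Trdn and Hrc, 0.82 for Ryr2, 0.77 for Cacna1c, 0.67 for Jph2 and 0.52 for Camk2d, but -0.31 for Slc8a1. These points share their library and its scaling, and the values are a description. MI rat 2 was the lowest and MI rat 3 the highest of the MI rats for 9 and 10 of the 10 genes, and DAPA rat 2 was the highest DAPA rat for 8. The highest MI rat was 4.40 to 4.91 times the lowest for Pln, Casq2, Trdn, Ryr2 and Hrc, 2.01 to 2.26 times for Cacna1c, Jph2 and Atp2a2, 1.32 times for Camk2d and 1.17 times for Slc8a1.

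The ratio of exchanger to pump transcripts sets Slc8a1 against Atp2a2, the main routes by which calcium leaves the cytosol. It was 0.0183, 0.0111 and 0.0170 in Sham, 0.0550, 0.0968 and 0.0445 in MI and 0.0223, 0.0113 and 0.0549 in DAPA. All MI rats were above all Sham rats, and 2 of the 3 DAPA rats were at or near the Sham range. The mean log2 difference was 2.03 in MI vs. Sham (two-sided exact permutation p = 0.1, the smallest possible), -1.37 in DAPA vs. MI (p = 0.2) and 0.67 in DAPA vs. Sham (p = 0.4, all exact). The Sham ratios rest on 37 to 60 Slc8a1 reads per rat. Within groups Slc8a1 did not follow Tnnt2 (r = -0.31), and how much of its RNA came from cells other than cardiomyocytes was not tested.

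The ratio of the brake to the pump, Pln to Atp2a2, was 2.64, 2.79 and 2.89 in Sham, 2.09, 1.497 and 2.92 in MI and 2.34, 2.93 and 2.32 in DAPA. The groups overlapped in every comparison. The mean log2 difference was -0.41 in MI vs. Sham, 0.27 in DAPA vs. MI and -0.14 in DAPA vs. Sham, each with an exact permutation p of 0.4. MI rat 2 had the lowest ratio and MI rat 3 was above every Sham rat.

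**Figure D4:**
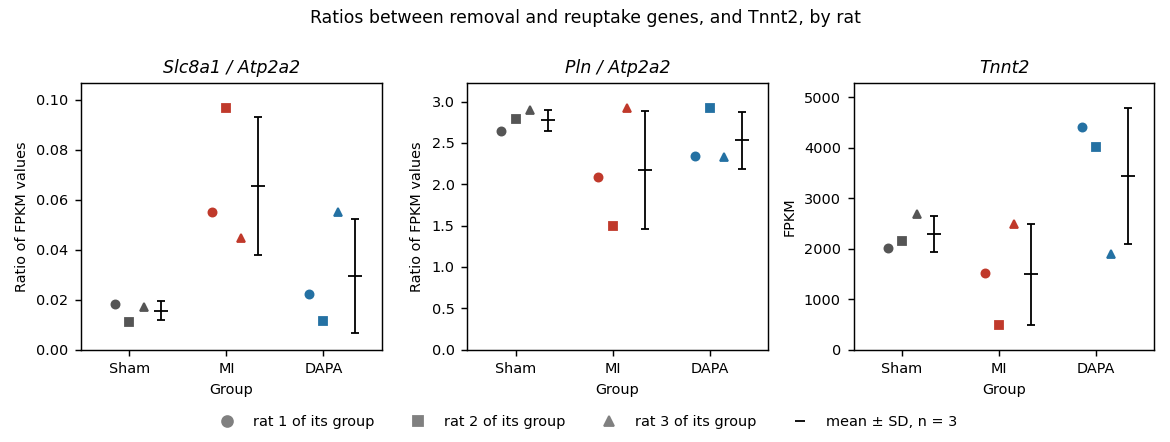
Ratios of Slc8a1 to Atp2a2 and of Pln to Atp2a2 FPKM, and Tnnt2 FPKM (y axes, linear), in each rat by group (x axis), with marker shapes for rats 1 to 3 and black bars for the mean ± SD (n = 3). The Slc8a1 to Atp2a2 ratio lay between 0.0445 and 0.0968 in MI and at most at 0.0183 in Sham, while the Pln to Atp2a2 ratio overlapped in all groups.

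A list of 49 further calcium handling genes, of which 47 were in the table, showed calls in both directions in MI vs. Sham. Of 38 tested, 4 were called higher and 2 lower, both below the 19.5% of all genes called in each direction, and their median log2 fold change was 0.08 (all genes -0.01). Calr, the store chaperone calreticulin (1.24 ± 0.21), Atp2b1, a calcium pump of the plasma membrane (1.15 ± 0.24), Cacna2d1, an accessory L-type channel subunit (0.75 ± 0.24), and Calm2, a calmodulin gene (0.71 ± 0.15), rose. Speg, a kinase of the junction (-1.38 ± 0.27), and Cacnb2, the beta subunit of the L-type channel (-1.22 ± 0.33), fell (SE, limma adjusted p between 0.00494 and 0.0436 for these 6). Relative to the cardiomyocyte panel none of the 6 was called (limma adjusted p between 0.0786 and 0.794). Scaled to all recovered reads Speg was at -0.43 and Cacnb2 at -0.38, both without a call (limma adjusted p = 0.185 and 0.303).

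Cacnb2 and Speg showed the size of these gaps. Cacnb2 was 4.23, 6.28 and 7.12 FPKM in Sham, 1.79, 0.969 and 3.43 in MI and 2.68, 1.75 and 2.74 in DAPA, so both it and the pore gene Cacna1c were lower in all ligated rats, while Cacna2d1 was higher in all of them (0.695 to 1.25 FPKM in Sham, 1.69 to 2.98 in the ligated rats). Speg was 9.46, 12.7 and 10.99 FPKM in Sham and at most 6.94 in the ligated rats. The calls of Cacna2d1 and Cacnb2 were lost in 5 and 4 of the 6 fits without 1 rat.

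By role in MI vs. Sham, 1 of 9 channel and t-tubule genes tested was called higher and 1 lower, 1 of 13 release unit genes higher and 1 lower, 1 of 5 reuptake genes higher, 1 of 4 surface export and store entry genes higher, and none of 5 kinase, phosphatase and anchor genes or of 2 mitochondrial uptake genes. Of all genes, 19.5% were called in each direction. In DAPA vs. MI none of the 36 tested was called. At an unadjusted p under 0.05, 1 was higher, which is near the 4.59% of all genes. The 4 genes that came first by p were Tmem38a, a potassium channel of the store (1.12 ± 0.40), S100a1, a calcium-binding modulator of Ryr2 and SERCA2 (0.91 ± 0.40), Cav3, caveolin of muscle (1.24 ± 0.58), and Speg (0.58 ± 0.28). Their limma adjusted p was 0.558 (SE beside each value), and the unadjusted p of Tmem38a was 0.0274. Relative to the cardiomyocyte panel all 4 were below 0, at -0.19, -0.40, -0.069 and -0.73. In DAPA vs. Sham 6 of 38 were called higher, near the 14.5% of all genes, and 2 lower, where 14.1% of all genes were.

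**Figure D5:**
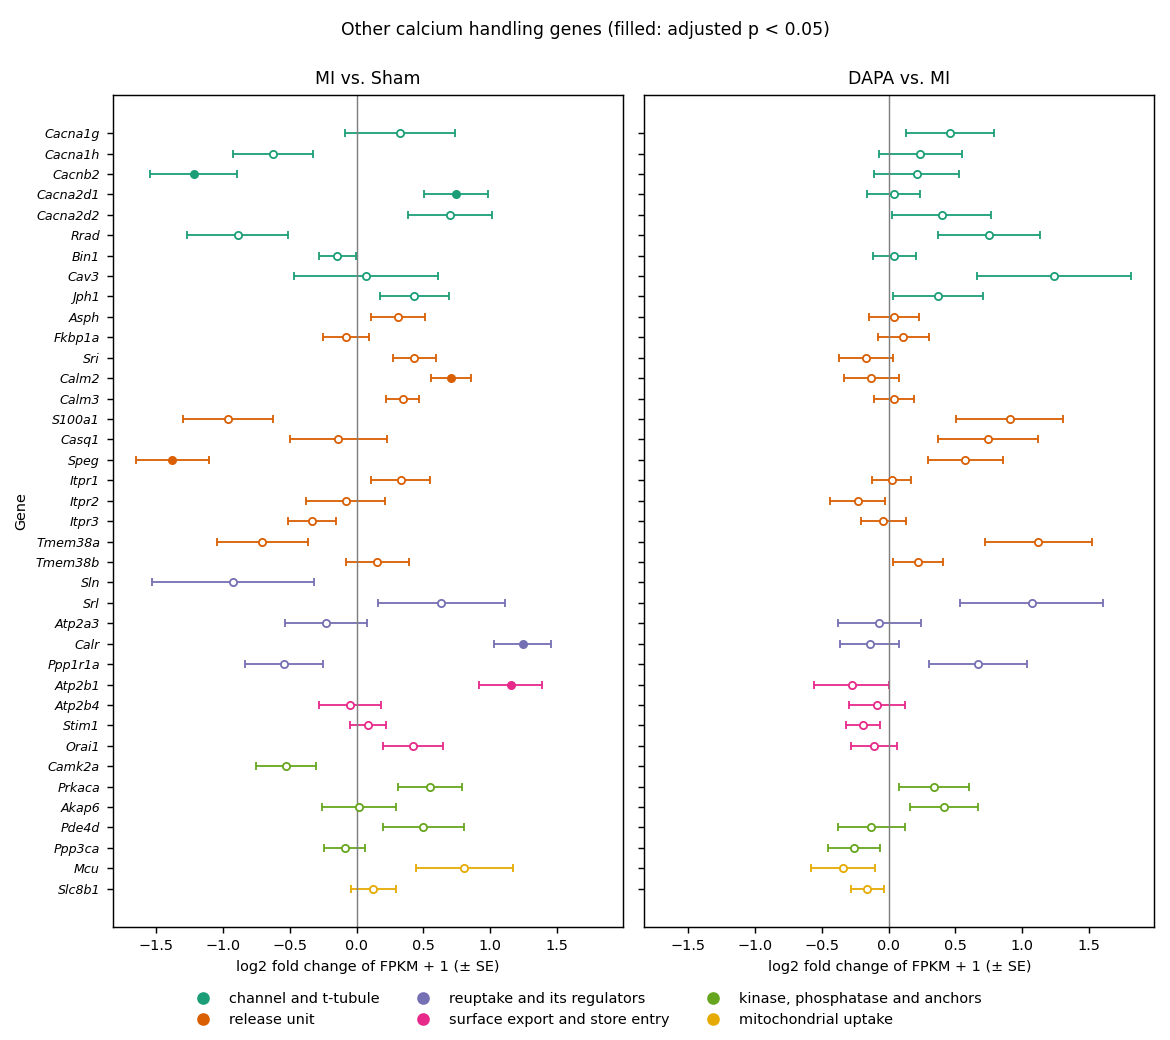
Log2 fold changes of FPKM + 1 (x axis, bars are ± SE) of the other calcium handling genes tested (y axis), coloured by role, in MI vs. Sham and DAPA vs. MI, filled where the limma adjusted p was under 0.05. In MI vs. Sham 4 genes were called higher and 2 lower. In DAPA vs. MI none of the 36 tested was called, 22 lay above 0 and 14 below, with a median of 0.04 (all genes -0.02).

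The 5 genes whose pattern was most like the mean z-score of the 10 members over the 9 rats, among 14147 genes that reached 1 FPKM in 3 or more rats, were Smpx, a small muscle protein (Pearson r = 0.97), Smyd1, a muscle methyltransferase (0.97), Atp5mc1, a subunit of ATP synthase (0.97), Acot2, a mitochondrial thioesterase (0.97), and Cdnf (0.96). In each the lowest of all 9 rats was MI rat 2 and the highest DAPA rat 2. Smpx, for example, was 32.2 FPKM in MI rat 2 and 227 in DAPA rat 2. These genes were picked for their likeness over the same 9 rats, which share libraries, so the values are a description.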

How the data were processed

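Left ventricular RNA of 9 rats was sequenced after poly-A selection. Each rat has 1 column of FPKM values in the deposited table, scaled by the authors for the length of the gene and the size of the library. The submitters' processing notes name HISAT2 2.0.5, featureCounts 1.5.0-p3, StringTie 1.3.3b and DESeq2. The genome build and whether strand was counted are not given in the sources used here, so overlapping genes were not separated. All 9 columns were used and 0 left out. Each name was taken once, as the row with the highest mean.

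The design had foreseen FPKM, so no count test was the main test. Values were tested with limma 3.58.1 in R 4.3.3 (trend in the empirical Bayes step) on log2(FPKM + 1), 2 groups per fit, over genes that reached 1 FPKM in 3 or more of those rats, and called at a Benjamini-Hochberg adjusted p under 0.05. Fold changes on this scale understate the change of low genes. Ratios were tested per rat by two-sided exact permutation tests in scipy 1.17.1. The exact tests of ratios to Tnnt2 and the overlap relative to the panel (8 of 10 listed cardiomyocyte genes found, Tnnt2 not among them) were chosen after seeing the data.

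Because low FPKM values are whole multiples of 1 read, reads were recovered within 0.02 of a whole number for 18896 of the 18896 genes seen in 4 or more rats. A count of 0 allows up to 3 reads, 1.74e-05% to 2.21e-05% of a library, counting error only.

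Named further genes were, from the 49-gene list (others of the list are not reported here), up to 4 in each direction with the largest change among those called in MI vs. Sham, the 4 with the smallest p in DAPA vs. MI, and the 5 most like the members' mean z-score. The members and lists were chosen with earlier results of these data known. Sequences are from RefSeq (GRCr8). Alternatives were a pseudocount of 0.1 (1 for ratios), no filter, a joint fit of all 9 rats, a block for the replicate number, other scalings, a cardiomyocyte panel as reference, the study's rule, and each rat left out. The study's rule means its thresholds (p under 0.05, absolute log2 fold change over 1) applied to these limma fits, not its DESeq2 results.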

Additional observations from a re-analysis of the deposited data

How the results depend on the processing

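Of the 10 genes, 5 were called in MI vs. Sham (1 higher, 4 lower), and the number was 2 with no filter on low values, 0 relative to the cardiomyocyte panel, 3 scaled to all recovered reads (3 higher, 0 lower) and 3 under the study's rule, and 1 to 5 with 1 rat left out. In DAPA vs. MI it was 0 under every alternative but the study's rule (1). In DAPA vs. Sham 6 were called (4 higher, 2 lower), against 4 relative to the panel (0 higher, 4 lower), 6 scaled to all recovered reads (6 higher, 0 lower), 0 with no filter, 3 with all 9 rats in 1 fit, 3 scaled to reads outside the mitochondrial genome, 1 under the study's rule, and 0 to 5 with 1 rat left out. Relative to Tnnt2, where 0 were called, MI vs. Sham gave 1 with a pseudocount of 0.1, 1 with all 9 rats in 1 fit, 1 under the study's rule and 0 to 2 with 1 rat left out, of which 2 without MI rat 2. DAPA vs. Sham relative to Tnnt2 gave 4 with the panel in its place, 3 under the study's rule and 0 to 4 with 1 rat left out, of which 4 without DAPA rat 3. The fits without 1 rat have fewer samples and no filter tests more genes; the cause of the other changes was not tested.

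Directions turned mainly with the reference. Relative to the panel, MI vs. Sham was 0.40 for Ryr2, 0.49 for Casq2, 0.61 for Atp2a2, 0.21 for Pln and 0.037 for Camk2d. Relative to the panel, DAPA vs. MI was -1.09 for Cacna1c, -0.71 for Ryr2, -0.18 for Casq2, -0.32 for Trdn, -0.89 for Jph2, -0.37 for Atp2a2, -0.10 for Pln, -1.27 for Camk2d, -0.19 for Tmem38a, -0.40 for S100a1, -0.069 for Cav3 and -0.73 for Speg, and DAPA vs. Sham was -0.31 for Ryr2. Scaled to all recovered reads, MI vs. Sham was 0.013 for Cacna1c, 0.51 for Ryr2, 0.88 for Casq2, 1.00 for Atp2a2, 0.60 for Pln and 0.39 for Camk2d, DAPA vs. MI was -0.17 for Camk2d, and DAPA vs. Sham was 0.067 for Cacna1c, 0.20 for Trdn, 0.41 for Hrc and 0.21 for Camk2d. The median of all genes moved too. In MI vs. Sham, DAPA vs. MI and DAPA vs. Sham it was 0.91, -0.21 and 0.73 under this scaling, and 0.71, -1.33 and -0.59 relative to the panel. With 1 rat left out, the MI vs. Sham values ran from -0.72 to 0.088 for Ryr2, -0.78 to 0.31 for Casq2, -0.38 to 0.20 for Atp2a2 and -1.03 to 0.036 for Pln, and the DAPA vs. MI value of Camk2d from -0.051 to 0.17.

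With 1 rat left out the log2 Slc8a1/Atp2a2 ratio ran from 1.71 to 2.27 in MI vs. Sham, -1.96 to -0.82 in DAPA vs. MI and 0.07 to 1.21 in DAPA vs. Sham, and log2 Pln/Atp2a2 from -0.65 to -0.16, 0.03 to 0.51 and -0.25 to -0.08.

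Over all genes, the 5261 called in MI vs. Sham were 620 relative to the panel, 9422 scaled to all recovered reads (8847 higher, 575 lower) and 3024 under the study's rule. Counts under that rule come from these limma fits and are not the study's own DESeq2 counts. In DAPA vs. MI the 0 became 50, 0 and 273. In DAPA vs. Sham the 3822 became 7516 scaled to all reads (7059 higher, 457 lower), 2364 under the study's rule and as few as 1802 without DAPA rat 1, and the split of 1936 higher and 1886 lower became 1528 and 2362 scaled to reads outside the mitochondrial genome. With the panel as reference this comparison had 2853 calls (329 higher, 2524 lower). Relative to Tnnt2 the counts of 755, 32 and 1356 moved to 2553, 1350 and 3078 under the study's rule and to 1259, 100 and 223 with all 9 rats in 1 fit. They were 1402 and 72 in the first 2 with a pseudocount of 0.1, 109 in the second with no filter, and 129 to 2600, 14 to 112 and 348 to 6989 with 1 rat left out.

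The replicate numbers did not pair the rats: same-numbered rats had correlations of deviations between -0.30 and 0.19 (9 pairs). With the number as a replicate block, the members called were 5, 0 and 5 in the 3 comparisons and 0 in all 3 relative to Tnnt2, and the log2 ratios stayed at 2.03 for Slc8a1/Atp2a2 and -0.41 for Pln/Atp2a2 in MI vs. Sham. The block moved the calls over all genes relative to Tnnt2 to 13 in DAPA vs. MI and 361 in DAPA vs. Sham.

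With 3 rats a group, an exact permutation test cannot go below 0.1, and Slc8a1 and Trdn rest on few reads in some rats (37 and 129 at the lowest), which limits the precision of their ratios. The FPKM denominator per recovered read was 0.560 to 0.678 in Sham and 1.04 to 1.42 in the other groups (geometric mean 1), so directions of moderate size depend on the scaling.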
